A study of Mus musculus with 20 samples.

Results

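A set of 8 genes that mark the oligodendrocyte lineage before full maturation were followed in whole mouse brain: Pdgfra, Cspg4, Olig1, Olig2, Sox10, Gpr17, Bcas1 and Enpp6. They were taken as a list of marker genes, chosen with earlier results of these data known. All 8 were found among the 19463 genes measured and passed the filter on low values. RNA came from male C57BL/6J mice of 2 genotypes, wild-type (WT) mice and Katnal2-KO mice, at 3 weeks (P21) and 10 weeks (P70) of age, with 5 mice in each of the 4 groups and 20 in all. Katnal2-KO mice were homozygous for a constitutive deletion of exon 3 that shifts the reading frame of Katnal2, a relative of the microtubule-severing katanins. The allele was made from a EUCOMM embryonic stem cell line by Flp and Cre recombination and was crossed back to C57BL/6J, so the loss was present in every cell and from the start of development, and KO and WT mice lived together in mixed-genotype cages. The comparisons asked what the loss of Katnal2 did to these genes at each age and how they changed between the ages in each genotype.

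Oligodendrocyte precursor cells arise from neural progenitors, spread through the brain, divide, and then leave the cycle to become the cells that wrap axons in myelin. Pdgfra encodes the receptor for the growth factor PDGF-A, which keeps precursors dividing and alive, and Cspg4 encodes the proteoglycan NG2 on the precursor surface. Olig1, Olig2 and Sox10 encode transcription factors that are present through the lineage, of which Olig2 is needed to form it. Gpr17 encodes a receptor of cells that have committed to differentiate, while Bcas1 and Enpp6 mark newly formed oligodendrocytes before and as they begin to make myelin. Pdgfra is also made by fibroblasts of the meninges and Cspg4 by pericytes. In RNA from whole brain, fewer cells of a type and less RNA per cell cannot be told apart.

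The members lie at separate places in the GRCm38 genome (GENCODE M21 annotation), apart from one neighbouring pair. Olig2 (ENSMUSG00000039830, chr16:91225457-91228677, plus strand) and Olig1 (ENSMUSG00000046160, chr16:91269772-91271933, plus strand) are separated by 41095 bases. Pdgfra (ENSMUSG00000029231) is at chr5:75152292-75198215 on the plus strand and Cspg4 (ENSMUSG00000032911) at chr9:56865033-56899870 on the plus strand. Sox10 (ENSMUSG00000033006) is at chr15:79154908-79165240 on the minus strand and Bcas1 (ENSMUSG00000013523) at chr2:170346991-170427845 on the minus strand. Enpp6 (ENSMUSG00000038173) is at chr8:46986887-47096762 on the plus strand. The identifier of Gpr17 is ENSMUSG00000052229. Their annotated structures range from the single exon of Olig1 to 23 exons in the principal transcript of Pdgfra.

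Promoter sequence was held for 4 of the 8 genes (RefSeq, GRCm38.p6): Pdgfra, Olig2, Enpp6 and Cspg4. As described below, Pdgfra, Olig2 and Enpp6 fell with age in both genotypes, while Cspg4 did not pass in the fit of all mice. The calls of Cspg4, and that of Olig2 in KO mice, depended on which mice were included. The 4 promoters are shown to give the sequence just before the start of genes that differed in how firmly they passed that test. The plus strand is printed 5′ to 3′ up to the first annotated transcript start. Capitals mark matches to the E-box CANNTG, the kind of sequence bound by basic helix-loop-helix factors such as Olig1 and Olig2, or to AACAAT, one of the short cores bound by SOX factors.
Pdgfra, chr5:75152001-75152250: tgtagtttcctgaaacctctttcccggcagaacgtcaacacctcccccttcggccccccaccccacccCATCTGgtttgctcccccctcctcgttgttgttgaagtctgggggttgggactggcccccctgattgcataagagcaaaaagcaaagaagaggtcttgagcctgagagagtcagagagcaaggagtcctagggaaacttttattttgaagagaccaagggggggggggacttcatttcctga
Cspg4, chr9:56864854-56865032: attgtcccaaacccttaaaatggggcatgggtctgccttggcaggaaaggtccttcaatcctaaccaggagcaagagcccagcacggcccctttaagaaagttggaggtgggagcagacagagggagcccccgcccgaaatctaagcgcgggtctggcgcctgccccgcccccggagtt
Olig2, chr16:91225300-91225456: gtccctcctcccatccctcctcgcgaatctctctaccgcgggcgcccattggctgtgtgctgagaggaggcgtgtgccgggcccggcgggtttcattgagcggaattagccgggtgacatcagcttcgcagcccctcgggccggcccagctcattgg
Enpp6, chr8:46986637-46986886: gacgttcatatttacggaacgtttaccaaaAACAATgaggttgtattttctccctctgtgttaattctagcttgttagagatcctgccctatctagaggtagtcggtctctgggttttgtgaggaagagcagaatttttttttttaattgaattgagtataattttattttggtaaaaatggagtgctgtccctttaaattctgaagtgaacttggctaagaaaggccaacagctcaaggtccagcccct

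In the 250 bases before the RefSeq start, searched on both strands, CANNTG (its own reverse complement, so each site counts once) was found in 1 of the 4 genes, against 66.2% of all 32851 mouse promoter windows of that length. AACAAT was found in 2 of the 4, Enpp6 and Olig2, the latter outside the stretch printed, against 9.42% of windows. ACAAAG, another SOX core, was found in 0 of the 4, against 16.5% of windows. These matches describe letters only.

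The values are normalized counts, that is, read counts estimated by the authors and scaled so that mice can be compared. Their sums over all genes ranged from 27310523 to 28423042 per mouse, so they do not show how deeply each mouse was sequenced, and no depth was estimated here. Tests were made with limma on log2(normalized count + 1), leaving out genes whose mean was under 10, and the Benjamini-Hochberg method was applied to the p-values of all genes tested. Nothing in the labels names separate litters or preparation batches. The 2 mice labelled replicate 5 at P70 stood apart from the rest of their groups: their root mean square deviation from the group mean over all genes was 0.532 (KO) and 0.438 (WT) on the log2 scale, against 0.302 to 0.329 for the other P70 mice. In both of them Cspg4 and Sox10 were higher, and Pdgfra and Enpp6 lower, than in every other mouse of their group. Several of the results below that rest on these mice are therefore also given without them. Katnal2 itself, summed over all its exons, was 113, 100, 115, 99.3 and 108 in P21 WT mice and from 78.1 to 96.0 in P21 KO mice. These groups do not overlap, as held for 0.46% of all genes tested. At P70 it was 122 ± 16.4 (SD, n = 5) in WT and 105 ± 11.8 (SD, n = 5) in KO mice, which do overlap. The unadjusted p of Katnal2 was 0.0207 at P21 and 0.130 at P70 (limma), and it did not pass after adjustment at either age. A value that sums all exons does not measure the deleted exon by itself.

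Between P21 and P70, 6 of the 8 genes fell in WT mice and the same 6 fell in KO mice, while none rose. The largest falls in both genotypes were in Enpp6 and Gpr17, markers of differentiating cells, followed by Olig1, and smaller falls were measured in Pdgfra, Sox10 and Olig2. Cspg4 and Bcas1 did not pass the test. Over all genes tested, 4.7% were called lower and 4.62% higher at P70 in WT mice, and 4.53% lower and 3.78% higher in KO mice. The list was chosen with earlier results of these data known, so these shares stand beside it as a description. The median difference over the 8 genes was -0.55 log2 in WT and -0.60 log2 in KO mice. The median over all genes tested was 0.00148 and -0.0103 log2. Age and any difference in how mice of the 2 ages were handled cannot be told apart.

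Among the precursor genes, Pdgfra fell in both genotypes. In WT mice its normalized counts were 1950, 1875, 1836, 2006 and 1964 at P21 and 1319, 1286, 1495, 1496 and 1167 at P70. In KO mice they were 1875, 2079, 2075, 2136 and 1779 at P21 and 1420, 1479, 1369, 1236 and 926 at P70. Every P70 mouse was below every P21 mouse of its genotype, and the lowest value at P70 was that of replicate 5 in both genotypes. The log2 difference was -0.52 ± 0.08 (SE) in WT mice (adjusted p = 0.00115, limma) and -0.64 ± 0.12 in KO mice (adjusted p = 0.00533), and without the P70 replicate 5 mice it was -0.46 and -0.53.

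Cspg4 did not pass in the fit of all mice. Its normalized counts in WT mice were 751, 814, 811, 741 and 629 at P21 and 619, 605, 698, 614 and 814 at P70. In KO mice they were 751, 755, 683, 895 and 787 at P21 and 629, 525, 588, 593 and 927 at P70. The ages overlapped in both genotypes, and the highest P70 value in each genotype was that of replicate 5. The log2 difference between ages was -0.16 ± 0.10 in WT mice (adjusted p = 0.351, limma) and -0.27 ± 0.14 in KO mice (adjusted p = 0.268). Without the P70 replicate 5 mice it was -0.24 (adjusted p = 0.0687) in WT and -0.40 (adjusted p = 0.0037) in KO mice. Without the replicate 5 mice of both ages it was -0.30 (adjusted p = 0.0164) and -0.40 (adjusted p = 0.00912), so that Cspg4 then passed in both genotypes. Whether Cspg4 fell with age thus depended on these mice, and the cause was not tested. This gain in calls was not particular to Cspg4. Without the P70 replicate 5 mice, calls over all genes went from 1643 to 3000 in WT and from 1467 to 3759 in KO mice. Without the replicate 5 mice of both ages they were 2646 and 3417.

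**Figure D1:**
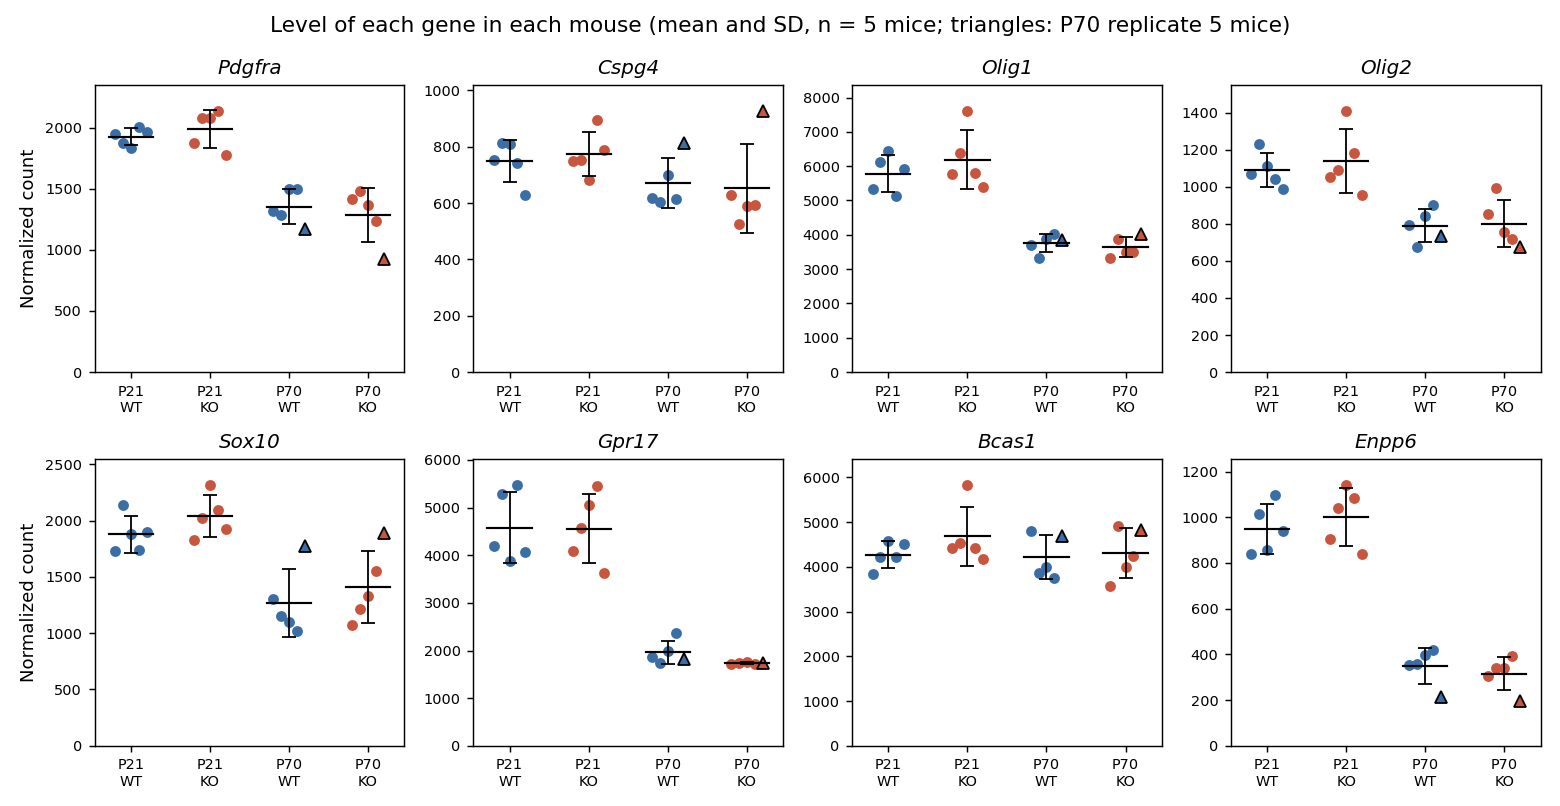
Normalized count (y axis, linear from 0) of each of the 8 genes in every mouse of the 4 groups (x axis). Points are mice, blue for WT and red for Katnal2-KO, black lines are the mean ± SD of 5 mice, and triangles mark the P70 replicate 5 mice, which lie at the top of their groups for Cspg4 and Sox10 and at the bottom for Pdgfra and Enpp6. The Gpr17 values of the P70 KO mice, 1708 to 1764, lie within a narrow band.

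The 3 lineage transcription factors all fell. Olig1 had WT counts of 5330, 6116, 6440, 5129 and 5914 at P21 and 3716, 3325, 3867, 4025 and 3839 at P70. Its KO counts were 5759, 6374, 7607, 5806 and 5407 at P21 and 3309, 3887, 3503, 3513 and 4026 at P70. No P70 mouse reached the lowest P21 mouse. Olig1 fell by 0.62 ± 0.08 log2 in WT (adjusted p = 0.000312, limma) and by 0.76 ± 0.09 log2 in KO mice (adjusted p = 0.000488).

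Olig2, which specifies the lineage, had WT counts of 1072, 1231, 1115, 1042 and 987 at P21 and 796, 677, 841, 904 and 732 at P70. In KO mice the counts were 1051, 1089, 1410, 1183 and 959 at P21 and 854, 994, 758, 720 and 676 at P70. The ages were separate in WT mice, and in KO mice 1 P70 mouse (994) lay above the lowest P21 mouse (959). The log2 difference was -0.47 ± 0.09 in WT (adjusted p = 0.00629, limma) and -0.51 ± 0.12 in KO mice (adjusted p = 0.0235).

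Sox10, a regulator of myelin genes that is kept in mature oligodendrocytes, had WT counts of 1725, 2140, 1885, 1741 and 1895 at P21 and 1307, 1154, 1099, 1015 and 1775 at P70. In KO mice its counts were 1831, 2019, 2318, 2097 and 1928 at P21 and 1070, 1218, 1327, 1551 and 1891 at P70. In each genotype 4 of 5 P70 mice were below all P21 mice, and the exception was replicate 5. Sox10 fell by 0.59 ± 0.13 log2 in WT (adjusted p = 0.0122, limma) and by 0.55 ± 0.13 log2 in KO mice (adjusted p = 0.0240). Without the P70 replicate 5 mice the differences were -0.72 and -0.67 log2. The calls of Olig2 and Sox10 in KO mice were the least secure of the 6. Leaving out P21 KO replicate 2, 3 or 4 or P70 KO replicate 3 ended both, leaving out P70 KO replicate 4 ended that of Olig2, and leaving out P70 KO replicate 2 ended that of Sox10, with adjusted p up to 0.0648 for Olig2 and 0.0633 for Sox10.

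The genes of differentiating cells went 2 ways. Gpr17 had WT counts of 4189, 5277, 3880, 5479 and 4062 at P21 and 1868, 1748, 1991, 2374 and 1818 at P70. In KO mice it had 4088, 4571, 5052, 5446 and 3634 at P21 and 1708, 1734, 1764, 1726 and 1733 at P70. The ages were far apart, and the mean changed by -57.2% in WT and by -62.0% in KO mice. The log2 difference was -1.22 ± 0.11 in WT (adjusted p = 2.79e-05, limma) and -1.38 ± 0.10 in KO mice (adjusted p = 1.42e-05).

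Enpp6, a choline-specific phosphodiesterase that appears as a cell begins to form myelin, changed most. Its WT counts were 839, 1013, 855, 1097 and 939 at P21 and 353, 359, 399, 421 and 215 at P70. Its KO counts were 905, 1040, 1142, 1083 and 840 at P21 and 307, 342, 340, 395 and 197 at P70. The highest P70 mouse, at 421, was far below the lowest P21 mouse, at 839. The log2 difference was -1.47 ± 0.16 in WT (adjusted p = 9.74e-05, limma) and -1.69 ± 0.16 in KO mice (adjusted p = 9.84e-05). Without the P70 replicate 5 mice, which were the lowest, it was -1.30 and -1.53.

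Bcas1 had similar values at both ages. Its WT counts were 3835, 4223, 4587, 4216 and 4510 at P21 and 4811, 3873, 3997, 3760 and 4701 at P70. Its KO counts were 4433, 4540, 5836, 4415 and 4184 at P21 and 3572, 4913, 3996, 4241 and 4814 at P70. The ages overlapped in both genotypes. The log2 difference was -0.02 in WT mice, with a 95% confidence interval of -0.20 to 0.16 (adjusted p = 0.918, limma), and -0.12 in KO mice, with an interval of -0.35 to 0.11 (adjusted p = 0.573). A fall of the size seen in Gpr17 or Enpp6 lies outside both intervals.

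**Figure D2:**
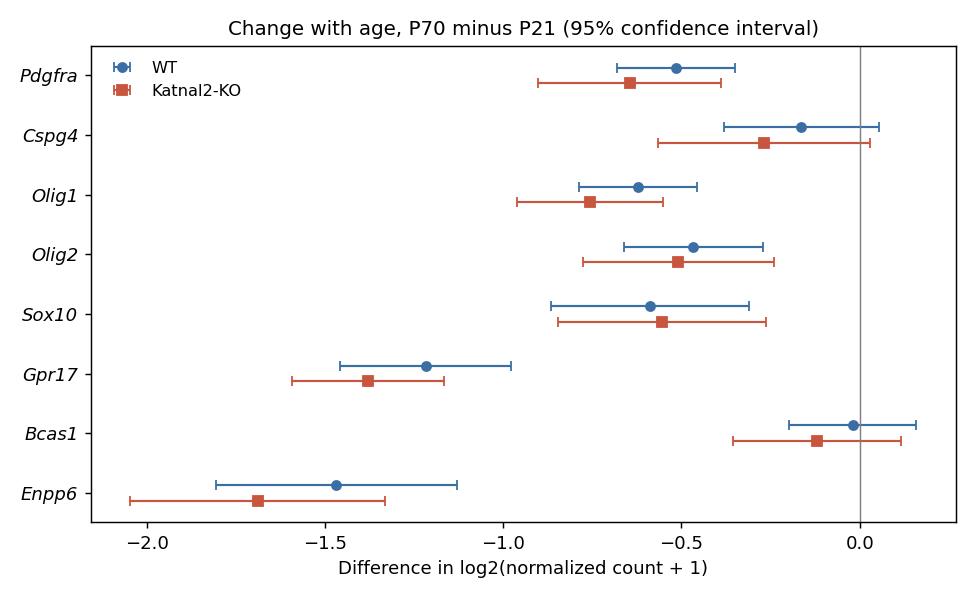
Difference between P70 and P21 in log2(normalized count + 1) (x axis) for each gene (y axis), as estimated by limma with 95% confidence intervals, for WT (circles) and Katnal2-KO mice (squares). Enpp6 and Gpr17 lie farthest below 0, and the intervals of Cspg4 and Bcas1 include 0 in both genotypes.

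Counted by overlap, all 5 P70 mice were below all 5 P21 mice for 5 of the 8 genes in WT mice, against 5.6% of all genes tested. The same held for 4 of the 8 genes in KO mice, against 5.52%. The 5 genes in WT mice were Pdgfra, Olig1, Olig2, Gpr17 and Enpp6, and Olig2 was the one among them that overlapped in KO mice.

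Ratios between genes of the same mouse showed how the makeup of the list shifted, and scaling between mice cancels in them. The log2 ratio of Gpr17 to Bcas1 was 0.09 on average in P21 WT mice, with a range of -0.24 to 0.38, and -1.11 in P70 WT mice, with a range of -1.37 to -0.66. In KO mice it went from -0.04 to -1.30, again with no overlap between ages. The log2 ratio of Pdgfra to Gpr17 went the other way, from -1.23 (range -1.49 to -1.05) to -0.53 (range -0.67 to -0.41) in WT mice and from -1.18 to -0.45 in KO mice. Gpr17 and Enpp6 kept closer together: their log2 ratio was 2.26 at P21 and 2.51 at P70 in WT mice and 2.18 and 2.49 in KO mice, and the ages overlapped. The ratio of the neighbouring Olig1 and Olig2 also overlapped between ages, with means of 2.41 and 2.25 log2 in WT mice and 2.44 and 2.20 log2 in KO mice. These ratios are given as descriptions without a test.

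The difference between the mean log2 value of the genes of differentiating cells (Gpr17, Bcas1 and Enpp6) and that of the precursor genes (Pdgfra and Cspg4) was taken in each mouse as a simple stage difference. In WT mice it was 0.97, 1.19, 1.02, 1.27 and 1.22 at P21 and 0.70, 0.61, 0.52, 0.70 and 0.33 at P70. In KO mice it was 1.1, 1.15, 1.44, 1.1 and 0.98 at P21 and 0.38, 0.70, 0.58, 0.73 and 0.35 at P70. All P70 mice were below all P21 mice. The genotypes were close, with means of 1.13 ± 0.13 (SD, n = 5) in WT and 1.15 ± 0.17 in KO mice at P21 and of 0.57 ± 0.15 and 0.55 ± 0.18 at P70. The P70 replicate 5 mice were the lowest of their groups, and without them the P70 means were 0.63 ± 0.08 (SD, n = 4) in WT and 0.60 ± 0.16 in KO mice. Bcas1 was the one gene of the first 3 that did not pass the age test.

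**Figure D3:**
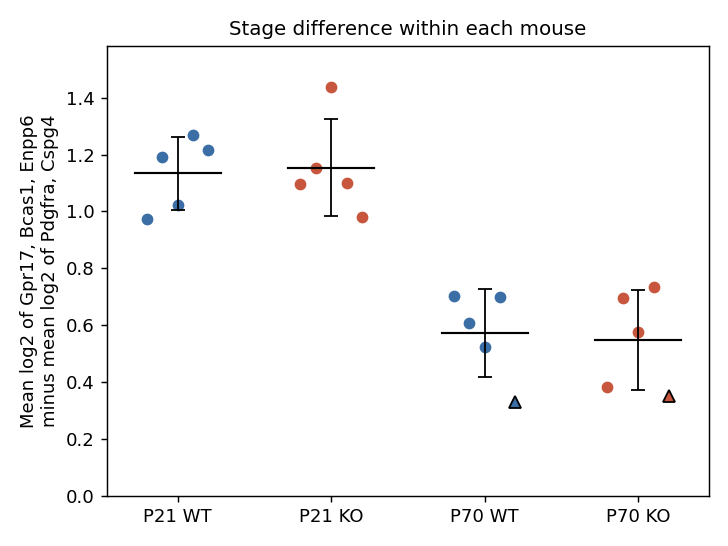
Stage difference of each mouse (y axis, log2 units: mean of Gpr17, Bcas1 and Enpp6 minus mean of Pdgfra and Cspg4) in the 4 groups (x axis), with the mean ± SD of 5 mice. Triangles are the P70 replicate 5 mice, and every P70 point lies below every P21 point.

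Levels were compared between genes as normalized counts per kilobase of the principal transcript. At P21 the order was Olig1, Bcas1, Gpr17, Sox10, Olig2, Pdgfra, Enpp6 and Cspg4 in both genotypes. In P21 WT mice Olig1 had 2676 ± 253 counts per kilobase (SD, n = 5), Bcas1 1466 ± 102, Gpr17 881 ± 143 and Sox10 675 ± 59.9. Olig2 had 431 ± 36.2, Pdgfra 282 ± 10.1, Enpp6 191 ± 21.8 and Cspg4 92.2 ± 9.26 counts per kilobase. Gpr17 and Sox10 were the one neighbouring pair whose mice overlapped, in both genotypes. At P70 the mean of Sox10 was above that of Gpr17 and the mean of Cspg4 above that of Enpp6. In P70 WT mice Olig1 had 1737 ± 122 and Bcas1 1450 ± 168 counts per kilobase, and these now overlapped. Sox10 (457 ± 108), Gpr17 (377 ± 47.8) and Olig2 (312 ± 35.2) overlapped as neighbours, as did Cspg4 (82.5 ± 10.9) and Enpp6 (70.3 ± 16.1). P70 KO mice had the same order, with Enpp6 at 63.6 ± 14.8 counts per kilobase, and Sox10 and Gpr17 did not overlap there. Without the P70 replicate 5 mice, the ranges of Cspg4 and Enpp6 overlapped, at 78.1 ± 5.31 and 77.0 ± 6.60 counts per kilobase in WT mice (SD, n = 4) and 71.9 ± 5.33 and 69.6 ± 7.30 in KO mice, and Sox10 was at 411 ± 44.3 in WT and 464 ± 72.8 in KO mice.

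Other genes of the lineage were read beside the 8 from lists of marker genes, also chosen with earlier results of these data known. Which cells of the whole brain their RNA came from was not tested. Of 14 other genes of differentiating cells, 11 fell with age in WT and 12 in KO mice and none rose, with medians of -0.62 and -0.82 log2. Fyn, a kinase that acts in early myelin wrapping, went from 4444 ± 316 to 2788 ± 115 counts in WT mice (-0.67 ± 0.06 log2, adjusted p = 4.23e-05, limma). Rras2, a small GTPase, went from 517 ± 31.5 to 265 ± 44.9 (-0.98 ± 0.12 log2, adjusted p = 0.000241). Of 15 other precursor genes, 4 fell in WT mice and 4 fell in KO mice, where 1 rose, with medians of -0.19 and -0.15 log2. The fallen ones included Vcan, which encodes the matrix proteoglycan versican (-0.76 ± 0.13 log2 in WT, adjusted p = 0.00258), and Neu4, a sialidase (-0.72 ± 0.13 log2, adjusted p = 0.00462). The gene that rose in KO mice was Rlbp1, a retinoid-binding protein (0.38 log2), named after its value was seen.

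Genes of mature myelin fell as well. Of 12, 11 fell in WT and 11 in KO mice, with medians of -1.11 and -1.28 log2. Mog, a protein of the outer myelin surface, went from 5077 ± 279 to 1874 ± 207 counts in WT mice (-1.44 ± 0.08 log2, adjusted p = 2.87e-07, limma). The falls of Gpr17 and Enpp6 were within the range of this list, -1.77 to -0.30 log2 in WT mice, and the difference of Bcas1 was outside it. Of 7 genes of dividing cells, 3 fell in WT and 4 in KO mice and none rose. Mki67, a marker of cycling cells, had a mean of 117 ± 22.2 at P21 and 63.8 ± 18.7 at P70 in WT mice (-0.89 ± 0.19 log2, adjusted p = 0.0111), and Top2a, the topoisomerase of dividing cells, had 85.7 ± 21.8 and 46.9 ± 5.80 (-0.83 ± 0.18 log2, adjusted p = 0.0136).

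Regulators of the lineage were read in the same way. Of 9 transcription factors that promote differentiation, 2 fell in WT mice, Zfp488 (-1.21 ± 0.13 log2, adjusted p = 8.67e-05, limma) and Nkx6-2 (-0.59 ± 0.17 log2, adjusted p = 0.0400). In KO mice 3 of the 9 fell. Of 6 factors that restrain differentiation, 1 fell in WT mice, the inhibitor Id2 (-0.23 ± 0.06 log2, adjusted p = 0.0331), and 0 passed in KO mice, where 2 had an unadjusted p under 0.05, as did 22.7% of all genes tested in that comparison. Id4, its relative, was at 0.17 ± 0.08 log2 in WT mice and did not pass (adjusted p = 0.197). Of 18 ligands and receptors that act on precursors, 1 rose and 2 fell in WT mice and 2 rose and 2 fell in KO mice. Fgfr1, a receptor for fibroblast growth factors, rose from 2603 ± 72.0 to 3416 ± 146 in WT mice (0.39 ± 0.06 log2, adjusted p = 0.000856). Lpar1, a lysophosphatidic acid receptor, went from 1590 ± 113 to 963 ± 185 (-0.74 ± 0.12 log2, adjusted p = 0.0024).

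**Figure D4:**
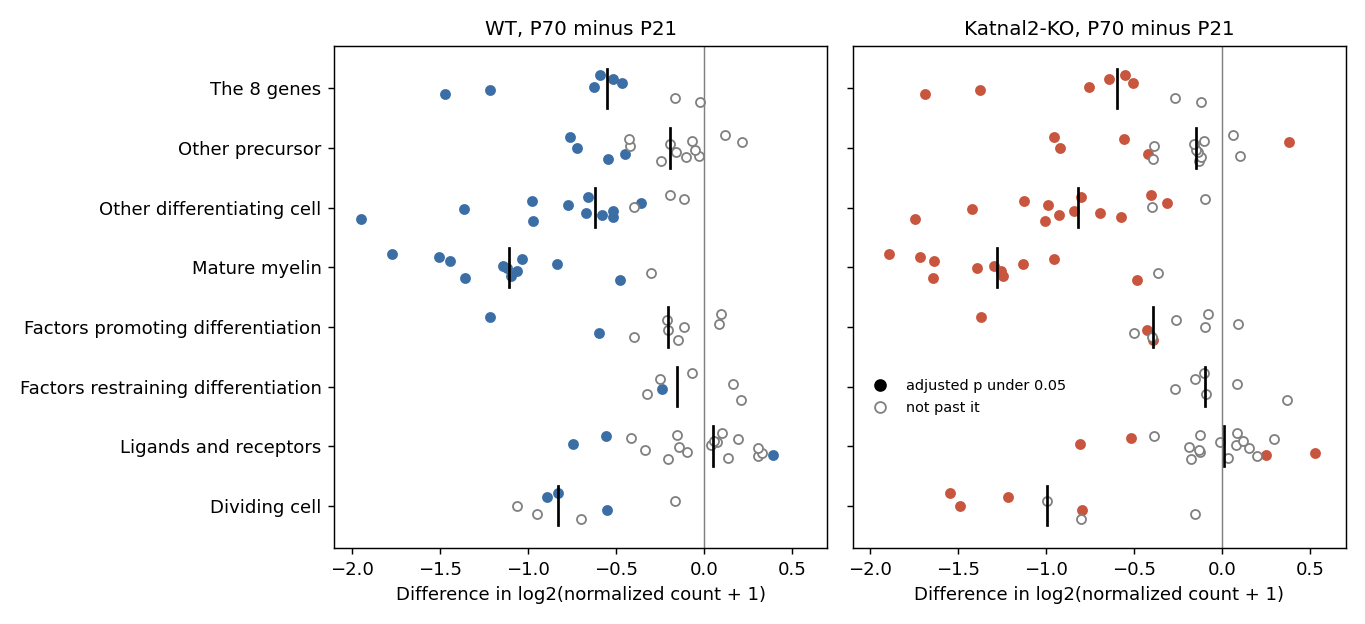
Difference between P70 and P21 in log2(normalized count + 1) (x axis) of every gene in 8 lists (y axis), in WT (left) and Katnal2-KO mice (right). Filled points passed an adjusted p of 0.05, open points did not, and black bars are list medians, which lie farthest below 0 for mature myelin genes (-1.11 in WT and -1.28 in KO mice).

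Other cells that hold some of these transcripts were checked by their markers, none of which was at 0 in any mouse. Of 9 pericyte markers, 1 fell with age in WT and 2 in KO mice, among them Rgs5 (-0.50 ± 0.08 log2 in WT, adjusted p = 0.00129, limma), while Abcc9 was at -0.32 ± 0.12 log2 in WT mice (adjusted p = 0.118). The summed pericyte level was 5330 to 5811 in P21 WT, 5411 to 6234 in P21 KO, 4514 to 5497 in P70 WT and 4698 to 5909 in P70 KO mice. Of 7 meningeal fibroblast markers, 3 fell in WT and 3 in KO mice, including Col1a2 (-0.57 ± 0.07 log2 in WT, adjusted p = 0.000166) and Col3a1 (-1.64 ± 0.20 log2, adjusted p = 0.000263). Their summed level was 5855 to 6448 in P21 WT, 4706 to 8568 in P21 KO, 4522 to 6230 in P70 WT and 4660 to 5664 in P70 KO mice. The part of either cell type in the values of Cspg4 or Pdgfra was not tested. Among 5 markers each, 1 neuronal gene rose in both genotypes, Snap25 (0.25 ± 0.05 log2 in WT, adjusted p = 0.0103), the neuronal Tubb3 was at -0.19 ± 0.07 log2 in WT mice (adjusted p = 0.122), and 0 astrocyte and 0 microglia genes passed, with 1 of 5 of each at an unadjusted p under 0.05 in WT mice, where 24.5% of all genes had one, and 0 in KO mice, where 22.7% had. The smallest p-values there in WT mice belonged to the astrocyte genes Slc1a3 (-0.15 ± 0.06 log2) and Aqp4 (-0.21 ± 0.14 log2) and the microglia gene P2ry12 (-0.41 ± 0.13 log2).

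Loss of Katnal2 did not move any of the 8 genes past the test at P21. All 8 overlapped between genotypes, against 0.46% of all genes tested whose groups did not overlap. None of the 8 had an unadjusted p under 0.05 in limma, as 2.44% of all genes had, and 0% of all genes passed after adjustment. The estimates were small: 7 of 8 were above 0, from 0.04 log2 for Pdgfra to 0.12 log2 for Bcas1 and Sox10, and Gpr17 was at -0.01 log2. Of all genes tested, 52.5% were above 0. The widest 95% confidence interval was that of Gpr17, -0.26 to 0.25 log2, so a difference as large as its change with age lies outside it. For Pdgfra the interval was -0.08 to 0.16 log2 and for Bcas1 -0.05 to 0.30 log2. Replicate 3 had the highest value of the P21 KO group in Olig1 (7607), Olig2 (1410), Sox10 (2318), Bcas1 (5836) and Enpp6 (1142). Without it, 6 of the 8 estimates stayed above 0.

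The same P21 KO mouse was also highest in the summed level of mature myelin genes, at 607125 against 414269 to 493568 in the other P21 KO mice and 415002 to 467674 in P21 WT mice. It was highest as well in the summed level of 8 Hox genes, which mark hindbrain and spinal cord, at 433 against 132 to 343 in the other P21 KO mice and 29.9 to 280 in P21 WT mice. At P21 all 8 Hox genes had higher means in KO mice, where 52.5% of all genes tested had a difference above 0. Of the 8, 4 had an unadjusted p under 0.05, as did 2.44% of all genes. Among them were Hoxb2 (1.32 ± 0.49 log2) and Hoxa2 (0.73 ± 0.29 log2), and 0 passed after adjustment (adjusted p = 1.00 for both, limma). Their counts were low. Hoxb2 had 9.27 ± 6.23 in WT and 22.4 ± 11.8 in KO mice, and Hoxa2 had 9.72 ± 3.56 and 16.3 ± 3.59. The part of these values in the P21 estimates was not tested.

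At P70 none of the 8 genes passed between genotypes either, against 0% of all genes. None had an unadjusted p under 0.05, against 1.13% of all genes, and all 8 overlapped, against 0.193% of genes that did not. Here 5 of 8 estimates were below 0 and 3 above, from -0.17 log2 for Gpr17 to 0.15 log2 for Sox10. The intervals were wider than at P21 for 6 of the 8 genes, all but Olig1 and Gpr17, and widest for Enpp6 (-0.60 to 0.32 log2) and Sox10 (-0.23 to 0.53 log2). That of Cspg4 was -0.38 to 0.26 log2 and that of Pdgfra -0.37 to 0.19 log2, and the replicate 5 mice lay at an end of their groups in these 4 genes. Without these mice the estimates were 0.17 log2 for Sox10 and -0.15 log2 for Enpp6, and neither passed (adjusted p = 0.999, limma).

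Gpr17 was the gene that came closest. Its 5 P70 KO mice, at 1708 to 1764, spanned a coefficient of variation of 1.17%, while the WT mice, at 1748 to 2374, had 12.7%. The KO mice lay below all WT mice in 4 of 5 cases. An exact two-sided permutation test over all ways to split the 10 mice gave p = 0.0159 for the difference in means, the smallest of the 16 such tests over 8 genes and both ages, for which 0.00794 is the smallest possible. In limma the p was 0.0702 and, adjusted over all genes, 1.00. The difference was -0.17 ± 0.08 log2, with a 95% confidence interval of -0.35 to 0.02, and -0.19 log2 without the replicate 5 mice. It did not hold up against the number of genes tested.

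**Figure D5:**
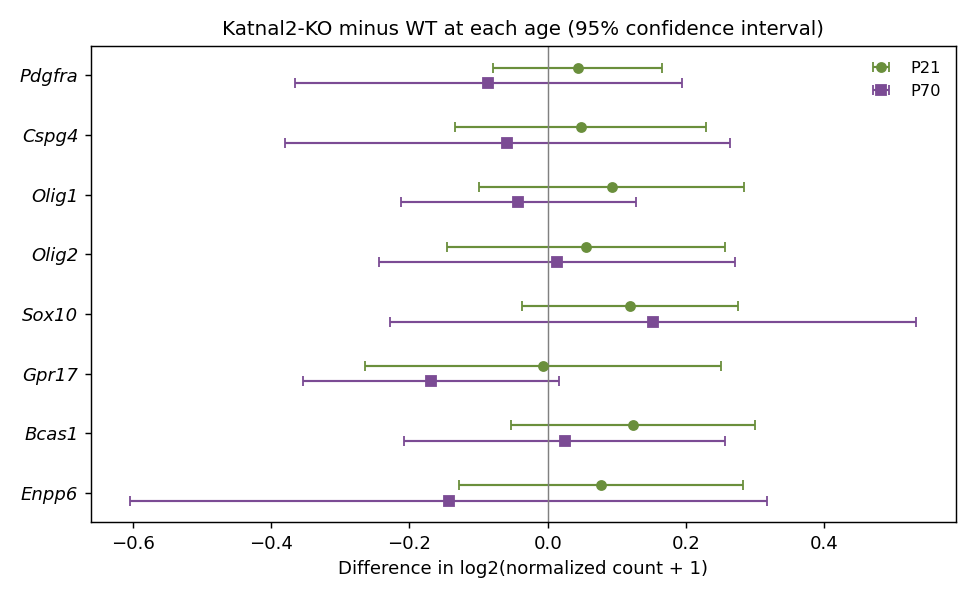
Difference between Katnal2-KO and WT mice in log2(normalized count + 1) (x axis) for each gene (y axis) at P21 (circles) and P70 (squares), as estimated by limma with 95% confidence intervals. All 16 intervals include 0, and that of Gpr17 at P70 reaches from -0.35 to 0.02.

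Whether the genotype difference itself changed between ages was tested over all 20 mice. The interaction passed for 0 of the 8 genes, against 0% of all genes after adjustment, and 0 of 8 had an unadjusted p under 0.05, against 1.68% of genes. The estimates ran from -0.22 log2 for Enpp6 (95% confidence interval -0.73 to 0.29) to 0.03 log2 for Sox10, and 7 of 8 were below 0. Of all genes tested, 46.9% were above 0. For Gpr17 the estimate was -0.16 log2, with an interval of -0.49 to 0.16.

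The related lists likewise gave no gene past the adjusted threshold between genotypes at either age, and 0% of all genes passed there. At P21 the other differentiating cell genes had a median difference of 0.04 log2 and the other precursor genes one of -0.02 log2, beside 0.07 log2 for the 8 genes and 0.00422 log2 for all genes. The smallest p-values belonged to Prom1 (0.11 ± 0.06 log2) and Itpr2 (0.16 ± 0.09 log2) among the former and to Neu4 (0.15 ± 0.09 log2) and Megf11 (0.06 ± 0.06 log2) among the latter. Myrf, the factor that switches on myelin genes, was at 0.17 ± 0.06 log2 and was the one gene of the promoting factors with an unadjusted p under 0.05 (adjusted p = 1.00, limma). Mature myelin genes were above 0 in 11 of 12 cases at P21, with a median of 0.10 log2, and below 0 in 9 of 12 at P70, with a median of -0.08 log2. Of all genes tested, 52.5% were above 0 at P21 and 47.8% at P70. Myelin genes vary together, and P21 KO replicate 3 was far above the other mice in their summed level, at 607125. The part of this mouse in the P21 median was not tested. At P70 Cnksr3, a gene of differentiating cells, was at -0.28 ± 0.10 log2 and was the one gene of its list with an unadjusted p under 0.05 (adjusted p = 1.00, limma), and Vcan was at -0.28 ± 0.18 log2. The ligand and receptor list was led by Fgfr1 at P21 (0.10 ± 0.05 log2, adjusted p = 1.00, limma) and by Igf1r at P70 (-0.17 ± 0.10 log2).

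Within groups, mice that were high in one of the 8 genes were not high in all. Each group was centred on its mean, and Pearson correlations of log2 values were taken over the 20 mice as a description, since the mice share 1 normalization. Gpr17 and Enpp6 varied together with r = 0.50 over 20 mice and 0.81 over the 16 mice that are not replicate 5. Olig1 and Olig2 had 0.54 and 0.74, and Olig1 and Bcas1 0.71 and 0.66. Pdgfra and Cspg4, both used as precursor markers, had r = -0.69 over 20 mice and 0.06 without replicate 5, so that their opposite variation rested on those mice. Pdgfra and Enpp6 likewise went from 0.79 to 0.28.

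The genes outside the list whose values most resembled those of a member differed between members. For Olig1 they were Mal (r = 0.90), Kcnk1 (0.86) and Mobp (0.86), for Olig2 Eid2b (0.80) and Ripk4 (0.78), and for Bcas1 Tac1 (0.95), Mbp (0.92) and Chchd1 (0.91). Mal, Mobp and Mbp are on the list of mature myelin genes. For Gpr17 they were Lsm11 (0.84), Tle3 (0.83) and Dact1 (0.80). Those for Pdgfra were Pvt1 (0.94), Ide (0.92) and Tgfbr1 (0.92). Those for Cspg4 were Tmem145 (0.95), Slc6a7 (0.94) and Fam160b2 (0.93). For Sox10 they were Kat8 (0.92), Fam181b (0.92) and Mrpl34 (0.91), and for Enpp6 Ncoa4 (0.94), Ust (0.94) and Atxn7l3b (0.93). Without replicate 5 the likeness of the genes named for Pdgfra, Cspg4, Sox10 and Enpp6 dropped to between 0.67 and 0.85, while that of the genes named for Bcas1 stayed between 0.93 and 0.97.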

How the data were processed

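Whole-brain RNA of 20 male mice was sequenced as poly(A)-selected libraries. Per the labels and the study's methods, the authors estimated abundance with Salmon 1.1.0 on GRCm38, correcting for GC bias, and passed the estimates through tximport to DESeq2 for normalization. The deposited signal values are these normalized counts, which are not whole reads. Of 19463 gene IDs, 19447 had a symbol in GENCODE M21. Groups came from the sample labels. The labels tell mice apart by number only, and p-values measure the spread between these mice.

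Log2(value + 1) was fitted for each comparison in limma 3.58.1 (R 4.3.3, eBayes trend on). Genes with a mean below 10 were left out, and an adjusted p (Benjamini-Hochberg) under 0.05 was called. Differences are on this scale, which understates changes of low genes. KO was compared with WT at each age and P70 with P21 in each genotype (10 mice each), and the interaction used all 20. The fit was tested on simulated data. Single values were compared by exact permutation.

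The 8 genes and the other lists were chosen with earlier results of these data known. Nkx2-2, Tcf7l2, Sox6 and Pdgfrb stand on 2 lists each. The text names all 8 genes, Katnal2, for most lists the 2 genes with the smallest p in the WT age comparison and, for some lists, in the genotype comparisons, and for each member the 3 genes most like it, except that some genes are not reported here. Alternatives were other pseudocounts, filters, scalings, limma without the trend, a single fit of all mice, a replicate block, other thresholds and each mouse left out. Leaving out only the P70 replicate 5 mice was added after seeing the data.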

Additional observations from a re-analysis of the deposited data

Results flagged for a closer look

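Of 40 sets of 5 mice tested for a sample far from the others (the 8 genes, Katnal2 and the stage difference in each group), 2 had an end mouse whose gap to its neighbour exceeded 0.71 of the range; chance gives about 1 in 20. Cspg4 in P70 KO mice was 927 in replicate 5, against 525 to 629 in the other 4, and the WT mouse of the same number and age was also the highest of its group. Bcas1 in P21 KO mice was 5836 in replicate 3, against 4184 to 4540 in the other 4; this mouse was also highest in the summed mature myelin and Hox genes.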

How the results depend on the processing

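The counts of the 8 genes past the threshold stayed within 1.5 times of the main count under every alternative run: 0 between genotypes and 0 for the interaction throughout, and for age 5 to 7 in WT and 4 to 7 in KO mice, the range over single mice left out being 6 to 6 and 4 to 7. The stage difference moved by less than its spread. The calls that changed are those of Cspg4, Olig2 and Sox10 given above. Some genotype estimates changed sign, among them those of Enpp6 (-0.14 log2 in the fit of all mice) and Pdgfra (-0.09 log2) at P70. Without all replicate 5 mice, Cspg4 at P21 was -0.0213 and Gpr17 0.0324 log2. Over single mice left out, KO minus WT at P21 ranged from -0.074 to 0.0718 for Gpr17, -0.0254 to 0.114 for Olig2 and -0.0139 to 0.0913 for Cspg4. At P70 it ranged from -0.0687 to 0.0702 for Olig2, -0.192 to 0.0141 for Cspg4, -0.0256 to 0.0893 for Bcas1, -0.141 to 0.0278 for Pdgfra and -0.308 to 0.0171 for Enpp6. The age difference of Bcas1 in WT ranged from -0.0688 to 0.0201, and the interaction from -0.0788 to 0.162 for Sox10 and -0.124 to 0.0382 for Olig2. The causes were not tested. Over all genes, 1643 were called with age in WT and 1467 in KO mice, against 3000 and 3759 without the P70 replicate 5 mice, 2646 and 3417 without all replicate 5 mice, and as few as 912 (without P21 WT replicate 4) and 896 (without P21 KO replicate 4) with 1 P21 mouse left out. With replicate numbers as a block, 6 genes of the 8 passed with age in each genotype and 0 elsewhere, and 1265 and 913 of all genes with age. Same-numbered mice are different animals, and the numbers were not taken as pairs, since not every pair's deviations correlated above 0.1: they correlated at -0.009 to 0.26 at P21 and 0.07 to 0.71 at P70, where 4 of 5 pairs were above 0.1, with 5 and 7 of 10 mice closest to their own number. No depth was estimated, so no limit from depth can be given.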
